A study of Mus musculus with 2 samples.

Results

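The transcripts examined here were those of the metallothioneins Mt1 and Mt2, the zinc importer Slc39a14, the zinc exporter Slc30a1 and the zinc-sensing transcription factor Mtf1. They were chosen by name and are 5 of the 19537 genes in the count matrices. Microglia of PARK7/DJ-1 knock-out (KO) mice and of wildtype (WT) mice were compared 24 h after lipopolysaccharide (LPS), a component of the bacterial outer membrane, had been injected to set off systemic inflammation. The question behind the comparison is how microglia respond to inflammation when they lack DJ-1, which guards against oxidative stress and is mutated in a familial form of Parkinson's disease. CD11b+CD45int cells were sorted from brain and captured by Drop-seq, where a bead in each droplet tags transcripts at their 3' end with a code for the cell and a unique molecular identifier (UMI) for the molecule. Each genotype gave 1 library, called KO and WT below (KO LPS and WT LPS in the plots), and each library pooled 2 mice, so genotype and library cannot be told apart.

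Both groups received LPS in the peritoneum at 4 µg per g of body weight. The KO line carries the gene trap allele Park7 Gt(XE726)Byg and had been crossed back to C57BL/6NCrl mice. The WT mice were littermates, and the methods give an age of 3 to 4 months. No untreated library was used here. A droplet was taken as a cell when it held at least 500 UMIs and at least 100 genes, which kept 320 of 9999 droplets in KO and 1427 of 9999 in WT. Doublets were left in. Levels are given in CPM, that is UMIs of a gene per 1e6 UMIs of all cells of a library, each with an exact 95% Poisson interval. With a single library per genotype no test was made. All intervals cover counting error only and say nothing of the spread between mice. As 3' tagging counts a transcript once whatever its length, levels of different genes are set side by side without a length scale. In these sums, fewer cells that express a gene and less RNA per cell cannot be told apart.

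Metallothioneins are small cysteine-rich proteins that bind zinc and copper, buffer their free level and scavenge reactive oxygen species. When cytosolic zinc rises, the transcription factor MTF-1, encoded by Mtf1, binds metal response elements (MREs) upstream of the metallothionein genes and of Slc30a1, whose product exports zinc across the plasma membrane. Inflammatory cytokines and glucocorticoids also induce metallothioneins in liver and brain, where astrocytes are known as a main source, and the importer encoded by Slc39a14 is induced by interleukin-6 in liver.

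The 5 genes lie at separate loci, except for the metallothioneins. In GRCm39, Mt2 (ENSMUSG00000031762.9) spans chr8:94898819-94900207 and Mt1 (ENSMUSG00000031765.10) spans chr8:94905710-94906955, both on the plus strand with 5502 bases between them. Slc30a1 (ENSMUSG00000037434.9) lies at chr1:191638808-191645361 on the plus strand, Mtf1 (ENSMUSG00000028890.15) at chr4:124695897-124743593 on the plus strand, and Slc39a14 (ENSMUSG00000022094.17) at chr14:70540678-70588914 on the minus strand. Promoter sequences from RefSeq (table build GRCm38.p6) were found for 4 of the 5 genes, with no entry for Slc39a14. Each window runs from 250 bases before the RefSeq start to 50 bases after it, and each matched GRCm39 exactly once. The windows of Mt1 (chr8:94905467-94905766), Mt2 (chr8:94898996-94899295) and Slc30a1 (chr1:191638643-191638942) are shown on the plus strand because they hold the letters that MTF-1 is known to read, with the MRE core in capitals.
Mt1: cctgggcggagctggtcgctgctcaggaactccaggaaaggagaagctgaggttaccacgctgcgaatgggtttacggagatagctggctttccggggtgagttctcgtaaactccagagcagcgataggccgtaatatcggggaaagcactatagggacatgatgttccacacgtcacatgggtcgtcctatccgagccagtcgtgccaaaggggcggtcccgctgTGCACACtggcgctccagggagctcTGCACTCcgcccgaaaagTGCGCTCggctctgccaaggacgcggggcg
Mt2: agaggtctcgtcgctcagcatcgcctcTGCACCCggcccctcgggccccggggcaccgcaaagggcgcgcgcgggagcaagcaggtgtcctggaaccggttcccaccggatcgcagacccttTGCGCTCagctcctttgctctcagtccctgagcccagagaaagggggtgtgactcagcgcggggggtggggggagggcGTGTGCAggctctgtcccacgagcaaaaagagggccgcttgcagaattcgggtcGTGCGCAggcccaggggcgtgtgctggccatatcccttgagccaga
Slc30a1: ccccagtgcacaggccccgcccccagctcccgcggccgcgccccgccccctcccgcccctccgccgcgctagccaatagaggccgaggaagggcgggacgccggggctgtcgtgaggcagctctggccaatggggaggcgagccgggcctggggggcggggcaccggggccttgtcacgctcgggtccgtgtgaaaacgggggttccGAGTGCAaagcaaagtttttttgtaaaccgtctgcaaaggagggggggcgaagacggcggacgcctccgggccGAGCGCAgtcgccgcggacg
The core was searched on both strands as TGCACNC and TGCGCNC, where N is any base. It was found at 3 places for Mt1, at 4 for Mt2, at 2 for Slc30a1 and at 0 for Mtf1 (chr4:124696092-124696391). Among the 32851 promoter windows of the table, 7.11% held at least 2 cores, 1.97% at least 3 and 0.517% at least 4. An antioxidant response element, searched as TGACNNNGC, was present in the windows of Mt2 and Slc30a1 and in 12.4% of all windows. A STAT site, searched as TTCNNNGAA, was present in 8.30% of all windows and in none of these 4. The windows follow 1 annotated start per gene, other starts were not searched, and a match describes letters and not a bound site.

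The labels were examined first. Park7, the gene disrupted in the KO line, had 1 UMI in KO and 323 UMIs in WT (2.62 and 162 CPM), a ratio of 0.0161 (0.000408 to 0.0906). The cells of KO held 381305 UMIs, with a median of 963.5 per cell, and those of WT held 1989011, with a median of 1065. No cell tag was shared by cells of the 2 libraries, with a count of 0. Of the 8 microglia markers none was at 0 in either library, and their summed level was 27007 CPM in KO and 18293 CPM in WT. Other cell types left RNA as well. The choroid plexus list summed to 2164 and 15.6 CPM in KO and WT, and 748 of its 825 UMIs in KO lay in 1 cell. The astrocyte list summed to 380 and 178 CPM and the endothelial list to 94.4 and 19.1 CPM. The neutrophil list summed to 0 and 68.4 CPM. The libraries also differed in their inflammatory state: 16 inflammatory genes summed to 530 CPM in KO and 10630 CPM in WT, and Saa3, an acute phase gene, had 0 and 8367 UMIs. The part of these differences in the results below was not tested, except where a value without the cells concerned is given.

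A gene is counted as 2-fold lower or higher from its log2 ratio with a prior count of 0.5, which draws ratios of few UMIs towards 1, while printed ratios are of CPM without the prior. Of the 5 genes, Mt1, Mt2 and Slc39a14 were at least 2-fold lower in KO, Slc30a1 was at least 2-fold higher, and Mtf1 lay between. All 5 passed the minimum of 20 UMIs, counted over the libraries together. Slc30a1 passed with 11 UMIs in KO and 10 in WT, and at its WT level in both libraries it would have fallen short. Its call as higher is thus in part set by this minimum. Among all 9085 genes that passed the minimum, 15.3% were at least 2-fold lower in KO and 13.5% at least 2-fold higher. The median log2 ratio was 0.03, with an SD of 1.17 across genes. Large differences were therefore common between these libraries. Scaling by a trimmed mean of gene ratios, which shifts every log2 ratio by 0.22 towards lower in KO, changed the counts from 1387 lower and 1225 higher to 1840 and 820, and left the 5 genes on the same side of the 2-fold threshold. A log2 ratio below that of Mt1 was found for 6.30% of these genes, below that of Mt2 for 2.60% and below that of Slc39a14 for 1.10%. The log2 ratios were -1.67 for Mt1, -2.75 for Mt2, -3.91 for Slc39a14, 2.51 for Slc30a1 and 0.03 for Mtf1.

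**Figure D1:**
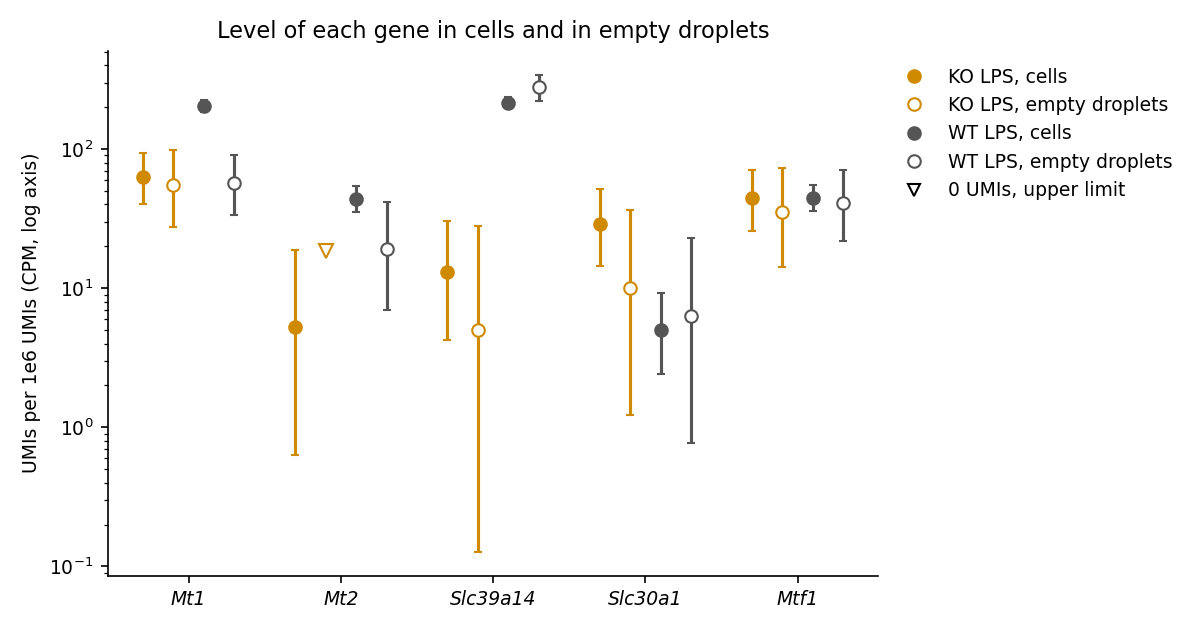
Level of each gene in CPM on a log axis, in the cells (filled) and in the droplets of 1 to 100 UMIs (open) of KO and WT, 1 library each. Bars are exact 95% Poisson intervals and a triangle marks the upper limit of a count of 0. Mt1 stood above the empty droplets in WT but not in KO, and Slc39a14 was as high outside the cells of WT as within them.

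Mt1 transcripts were lower in KO and were found in a smaller share of its cells. There were 24 UMIs of Mt1 in KO, or 62.9 CPM (40.3 to 93.7), and 405 in WT, or 204 CPM (184 to 224). The ratio of KO over WT was 0.309 (0.196 to 0.467). Mt1 was present in 13 of the 320 KO cells, 4.06% (2.18 to 6.85, Clopper-Pearson), and in 245 of the 1427 WT cells, 17.2% (15.2 to 19.2). Most positive cells held a single UMI, 11 of 13 in KO and 165 of 245 in WT. Mt2, the paralog next to it, was scarcer in both libraries. It had 2 UMIs in KO, or 5.25 CPM (0.635 to 18.9), and 87 in WT, or 43.7 CPM (35.0 to 54.0). The ratio was 0.120 (0.0143 to 0.446), an interval that is wide because of the 2 UMIs. Mt2 was present in 2 KO cells and in 50 WT cells, 0.625% and 3.50%. Because both genes are closely related, some reads could have been assigned to either, and their sum does not depend on that. The sum was 26 UMIs, 68.2 CPM (44.5 to 99.9), in KO and 492 UMIs, 247 CPM (226 to 270), in WT, with a ratio of 0.276 (0.178 to 0.409).

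A few cells carried many metallothionein transcripts, and the highest 1 in KO and 2 in WT also held transcripts of astrocytes. In KO, 1 cell of 1892 UMIs had 12 of the 26 UMIs of Mt1 and Mt2, which is 46.2%. This cell had 31 UMIs of the astrocyte list and 9 of the microglia list. In WT, the highest cell of 3144 UMIs had 45 UMIs of Mt1 and Mt2 beside 56 astrocyte-list UMIs and 4 microglia-list UMIs. The next cell, of 1100 UMIs, had 10 and 15. Together these 2 WT cells held 55 of 492 metallothionein UMIs, or 11.2%. The WT cell next in rank, of 1445 UMIs, had 9 metallothionein UMIs beside 0 astrocyte-list and 36 microglia-list UMIs. Apart from the astrocyte-list cells, 1 in KO and 2 in WT, no cell of either library had more than 4 astrocyte-list UMIs. In the 3 cells, Slc1a2, the astroglial glutamate transporter, gave 23 UMIs in KO and 33 in WT. Aldoc, an astrocyte glycolytic enzyme, gave 3 and 13. Of the rest of the list, Slc1a3 gave 1 and 13, S100b 1 and 5, Gja1 1 and 2, and Atp1b2 2 and 1. Gfap gave 0 and 3 and Agt 0 and 1, and Aldh1l1 and Aqp4 gave 0 in all 3 cells. The astrocyte-list UMIs of the KO cell thus came mostly from Slc1a2. Mt3, the metallothionein named for its expression in brain, had 12 of its 14 WT UMIs in those 2 cells and 2 of its 4 KO UMIs in the KO cell. Other astrocyte-list UMIs came mostly from Slc1a3, with 101 UMIs in the remaining KO cells and 266 in the remaining WT cells.

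**Figure D2:**
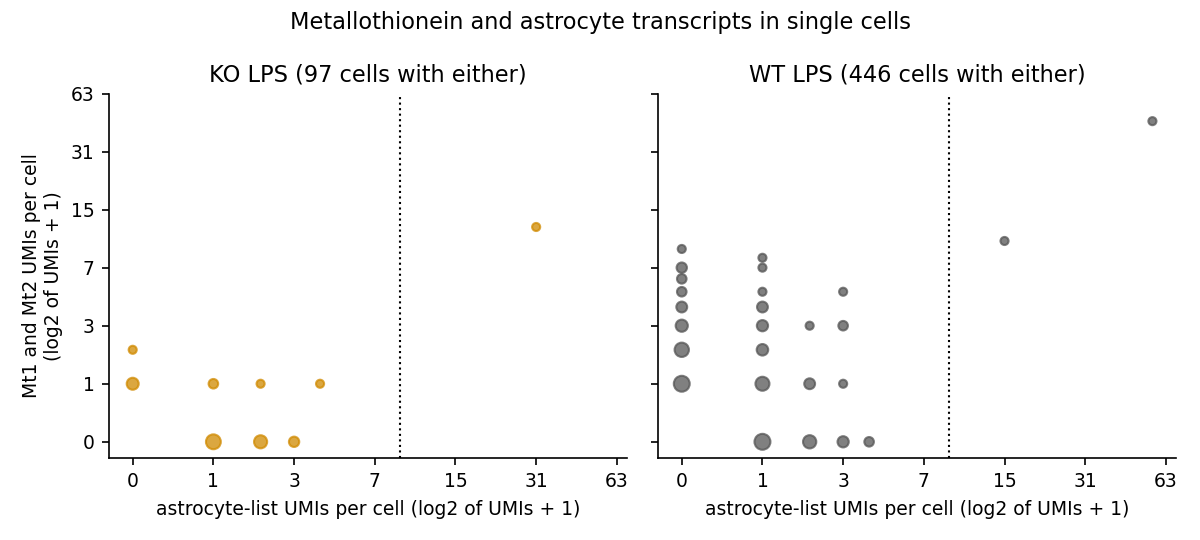
UMIs of Mt1 and Mt2 in single cells against UMIs of the astrocyte list, both as log2 of UMIs + 1, for cells of KO and WT with at least 1 UMI of either. Point size grows with the number of cells and the dotted line marks 10 astrocyte-list UMIs. The cells to the right of it, 1 in KO and 2 in WT, were also the highest of their library for Mt1 and Mt2.

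Without these 3 cells the metallothionein difference between the libraries was larger. In the remaining 319 and 1425 cells, Mt1 and Mt2 together had 14 UMIs in KO, or 36.9 CPM (20.2 to 61.9), and 437 UMIs in WT, or 220 CPM (200 to 242). The ratio was 0.168 (0.0909 to 0.284) against 0.276 with all cells. For Mt1 alone it was 0.188 (0.0993 to 0.326) and for Mt2 0.0688 (0.00172 to 0.395), the latter on 1 KO UMI. Mt3 had 2 UMIs in each library. The leaving out of these cells was chosen after the data had been seen.

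Free RNA was measured in the droplets of 1 to 100 UMIs, 9069 in KO with 198723 UMIs and 4267 in WT with 315748 UMIs. There, Mt1 stood at 55.4 CPM (27.6 to 99.0) in KO and 57.0 CPM (33.8 to 90.1) in WT. The libraries therefore differed in their cells and not detectably in their empty droplets, where the ratio was 0.971 (0.414 to 2.17). Within WT, Mt1 was 3.57-fold higher in cells than in empty droplets (2.23 to 6.09). Within KO, the same ratio was 1.14 (0.536 to 2.57), so a level in KO cells above free RNA was not detectable at this depth. Without the astrocyte-list cell, Mt1 in KO cells stood at 34.3 CPM (18.2 to 58.6). The microglia list itself was only 1.07-fold higher in cells than in empty droplets of KO, at 27007 and 25181 CPM, and 1.59-fold higher in WT, so that this ratio does not set Mt1 apart from transcripts of microglia in KO. Mt2 in WT was 2.30-fold higher in cells than in empty droplets (1.02 to 6.44).

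Droplet depth gave the same order. In WT, Mt1 stood at 57.0 CPM in droplets of 1 to 100 UMIs, at 89.6 CPM from 101 to 499, at 190 CPM from 500 to 999 and at 208 CPM from 1000 upwards. In KO it stood at 55.4, 47.8, 39.6 and 74.5 CPM. Without the astrocyte-list cells, the deepest class stood at 31.6 CPM (13.6 to 62.3) in KO and 179 CPM (159 to 202) in WT. The KO intervals overlapped each other in all 4 depth classes, while in WT the deepest 2 classes lay above the shallowest 2, with or without those cells.

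**Figure D3:**
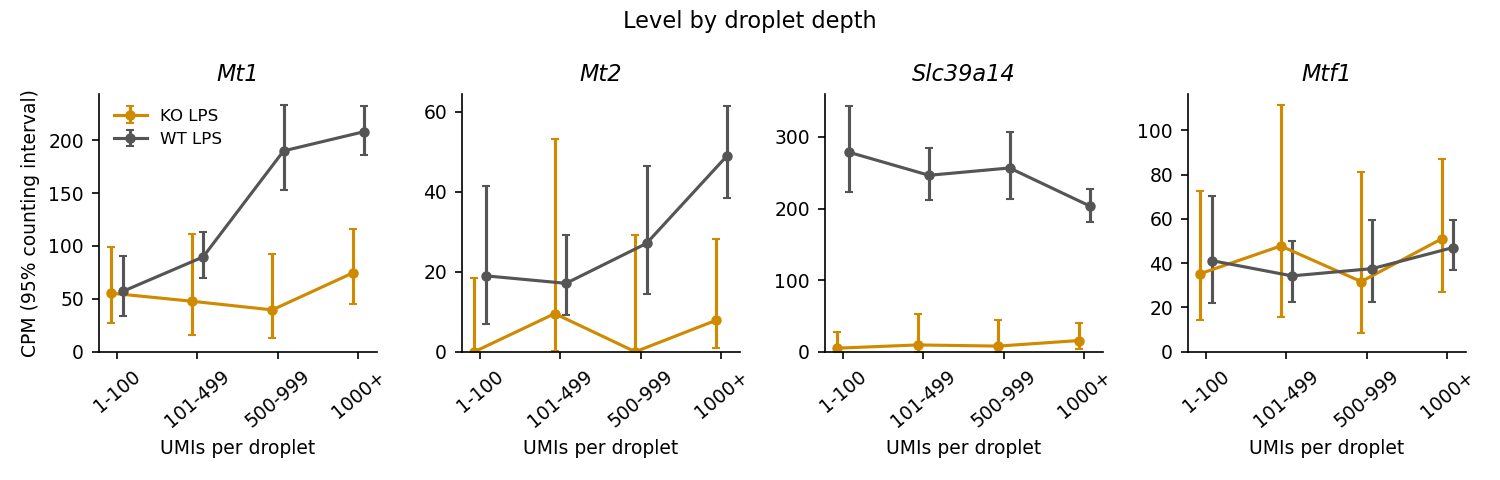
CPM of Mt1, Mt2, Slc39a14 and Mtf1 in droplets of 1 to 100, 101 to 499, 500 to 999 and at least 1000 UMIs, for KO and WT, with exact 95% Poisson intervals. Mt1 and Mt2 were highest in the deepest droplets of WT, among the WT classes Slc39a14 was lowest there at 203 CPM, and the intervals of Mtf1 overlapped.

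To compare shares at equal depth, each cell was thinned to 500 UMIs, and no cell was shallower. A UMI of Mt1 or Mt2 was then present in 7 of 320 KO cells, 2.19% (0.884 to 4.45), and in 122 of 1427 WT cells, 8.55% (7.15 to 10.1). Unthinned, the shares were 4.38% and 18.9%. Droplets of 500 UMIs filled with free RNA alone would reach 2.73% (1.37 to 4.83) in KO and 3.73% (2.41 to 5.50) in WT. The WT share lay above that level and the KO share did not, in a library where the microglia list also stood near its level in empty droplets. That level takes all 500 UMIs as free RNA, so a share near it does not show that the transcripts in KO cells are free RNA.

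Mt1 and Mt2 were found in the same WT cells more often than independent detection would give. In the thinned WT cells, 106 had Mt1, 24 had Mt2 and 8 had both, against 1.78 expected, a ratio of 4.49 (1.94 to 8.84). Over all UMIs the counts were 245, 50 and 26 against 8.58 expected, a ratio of 3.03 (1.98 to 4.44). At equal depth, 33.3% of the cells with Mt2 also had Mt1 (15.6 to 55.3), and 6.99% of those without Mt2 had it (5.71 to 8.45). Unthinned, these shares were 52% and 15.9%. Without the astrocyte-list cells, 7 cells had both against 1.68 expected, a ratio of 4.17 (1.68 to 8.59), and a fresh thinning of the same cells gave 5 against 1.76, a ratio of 2.84 (0.922 to 6.63). Without the 3 cells highest for Mt1 and Mt2 it was 2.54 (0.693 to 6.51), and without cells that held at least 2 UMIs of other cell types 2.64 (0.719 to 6.76). These intervals include 1, so the thinned overlap rests on few cells. In KO a single cell had both, the astrocyte-list cell.

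Mt2 made up a minor part of the metallothionein UMIs. Its share was 17.7% in WT cells (14.4 to 21.3) and 7.69% in KO cells (0.946 to 25.1). The interval of KO spans that of WT, so a difference in the balance of both genes was not detectable at this depth.

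WT cells also differed among themselves in the level of Mt2. The cells were divided by sex-linked transcripts, since each library pooled 2 mice and the study used Xist to tell cells of females. Of the WT cells, 565 held a Xist UMI and no Y-linked UMI, 195 held a Y-linked UMI and no Xist UMI, 80 held both and 587 held neither. Mt2 had 59 UMIs in the Xist cells, or 72.9 CPM (55.5 to 94.0), and 2 UMIs in the Y-linked cells, or 6.51 CPM (0.788 to 23.5). The ratio was 11.2 (2.97 to 94.6). Mt1 differed less, at 210 CPM (180 to 244) and 120 CPM (84.7 to 166), a ratio of 1.74 (1.22 to 2.56). In the cells with both marks, Mt2 stood at 33.9 CPM (14.6 to 66.8) and Mt1 at 119 CPM (78.8 to 171). In the cells with neither, which include both astrocyte-list cells, Mt2 stood at 28.3 CPM (16.8 to 44.7) and Mt1 at 267 CPM (229 to 311). The 2 astrocyte-list cells held 11 of the 18 Mt2 UMIs and 44 of the 170 Mt1 UMIs of this class. Its levels thus rest in part on them and are not ranked against those of the Xist cells. Slc39a14 did not differ beyond counting error, at 241 and 208 CPM (ratio 1.16, 0.868 to 1.56), nor did Mtf1, at 38.3 and 39.0 CPM. Neither astrocyte-list cell was in the Xist or the Y-linked class, and the highest 3 Xist cells held 14 of the 59 Mt2 UMIs. The median depth was 1133 UMIs in the Xist cells and 1287 in the Y-linked cells. If each class stems from 1 mouse, sex and mouse cannot be told apart. KO held 200 Xist cells and only 12 Y-linked cells, in which all 5 genes had 0 UMIs, a count that allows up to 255 CPM for each. Among Xist cells alone, Mt1 had 8 UMIs in KO and 170 in WT, or 30.7 and 210 CPM, and Mt2 had 1 and 59 UMIs.

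**Figure D4:**
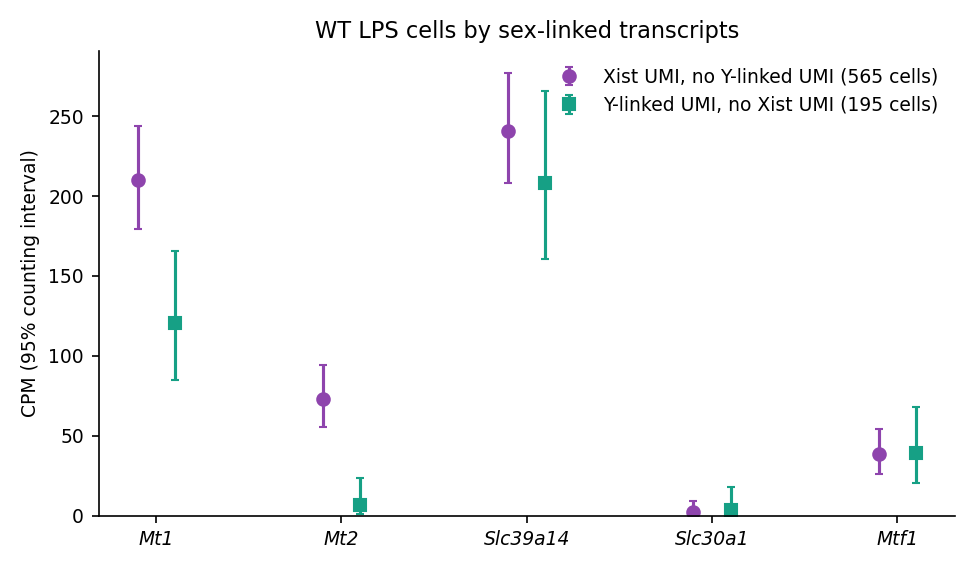
CPM of the 5 genes in WT cells with a Xist UMI and no Y-linked UMI (565 cells) and with a Y-linked UMI and no Xist UMI (195 cells), with exact 95% Poisson intervals. The intervals of Mt1 and of Mt2 do not overlap, and those of Slc39a14, Slc30a1 and Mtf1 do.

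Slc39a14, whose product carries zinc and also iron and manganese into cells, showed the largest difference of the 5 genes, but it was not specific to cells. It had 5 UMIs in 4 cells of KO, or 13.1 CPM (4.26 to 30.6), and 430 UMIs in 330 cells of WT, or 216 CPM (196 to 238). The ratio was 0.0607 (0.0196 to 0.143). In the WT library 3 cells held 4.19% of its UMIs, so that it was spread over many cells. In the empty droplets of WT, Slc39a14 stood at 279 CPM (224 to 343), above the level in cells, with a ratio of cells over empty droplets of 0.776 (0.615 to 0.987). At 500 UMIs per cell it was present in 10.5% of WT cells (8.97 to 12.2), and free RNA alone would give 13.01% (10.6 to 15.8). Its share of cells in WT thus did not exceed that of free RNA. This comparison takes all 500 UMIs of a cell as free RNA, so it cannot tell whether the cells held transcripts of their own. Unthinned, 23.1% of cells had it. The difference between the libraries was present in the empty droplets too, with 1 UMI in KO and 88 in WT, a ratio of 0.0181 (0.000452 to 0.103).

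The lists of astrocytes and neutrophils were also set beside empty droplets in WT. The astrocyte list stood at 178 CPM (160 to 198) in cells and 241 CPM (190 to 301) in empty droplets. Its ratio was 0.742, with intervals of both levels that overlap. Neutrophils, which the CD45int sort should leave out, were followed as well. The level of their list was 68.4 CPM in cells (57.4 to 80.9) and 219 CPM in empty droplets (170 to 277), and it was 0 in both in KO. Of its 7 genes, S100a8 and S100a9, the calprotectin subunits, gave 81 and 45 UMIs in WT cells. Slc39a14 was at 202 CPM (128 to 302) in the 63 WT cells with a neutrophil-list UMI and at 217 CPM (196 to 239) in the 1364 without one. The source of the free Slc39a14 RNA was not tested.

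Slc30a1, the exporter that lowers cytosolic zinc, was higher in KO. It had 11 UMIs in 9 cells of KO, or 28.8 CPM (14.4 to 51.6), and 10 UMIs in 9 cells of WT, or 5.03 CPM (2.41 to 9.25). The ratio of KO over WT was 5.74 (2.21 to 15.1). No cell held more than 2 of its UMIs, and the cells over empty droplets gave 2.87 (0.626 to 26.6) in KO and 0.794 (0.169 to 7.45) in WT, so that neither level stood apart from free RNA at this depth. Of the genes whose windows hold MRE cores, Mt1 and Mt2 were lower in KO by summed counts and Slc30a1 was higher, the latter on 11 and 10 UMIs. Whether the cores bear on these levels was not tested.

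Mtf1 did not differ between the libraries beyond counting error. It had 17 UMIs in KO, 44.6 CPM (26.0 to 71.4), and 89 UMIs in WT, 44.7 CPM (35.9 to 55.1). The ratio of 0.996 had an interval from 0.556 to 1.69, which holds a fall of up to 1.80-fold as well as a rise. It was present in 13 KO cells (4.06%) and 82 WT cells (5.75%). Its level in cells was close to that in empty droplets, at 35.2 CPM in KO and 41.2 CPM in WT.

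Of 21 other zinc genes, which are Mt3 and the remaining transporters of both families, 13 had at least 20 UMIs. None was at least 2-fold lower in KO, a count of 0 of 13, 1 was at least 2-fold higher and 12 lay between, beside 15.3% lower and 13.5% higher of all genes, with a median log2 ratio of -0.34 beside 0.03 over all genes. Without the prior count, Slc39a6 (5 and 55 UMIs, ratio 0.474, 0.148 to 1.18) and Slc30a7 (7 and 74 UMIs, ratio 0.493, 0.192 to 1.07) also lay past 2-fold on the lower side, with intervals that include no difference. The higher one was Slc30a4, an exporter known for its role in zinc secretion into milk. It had 7 and 15 UMIs and a ratio of 2.43 (0.840 to 6.34), an interval that includes no difference. Like Slc30a1, it reached 20 UMIs only through its level in KO. Among importers, Slc39a10 was the most abundant of these other genes, at 94.4 CPM in KO and 134 CPM in WT (ratio 0.706, 0.484 to 1.00). Among exporters, Slc30a9 was the most abundant, at 105 and 93.5 CPM (1.12, 0.776 to 1.59). In WT the summed level of all importers was 582 CPM, of which Slc39a14 made up 216 CPM.

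**Figure D5:**
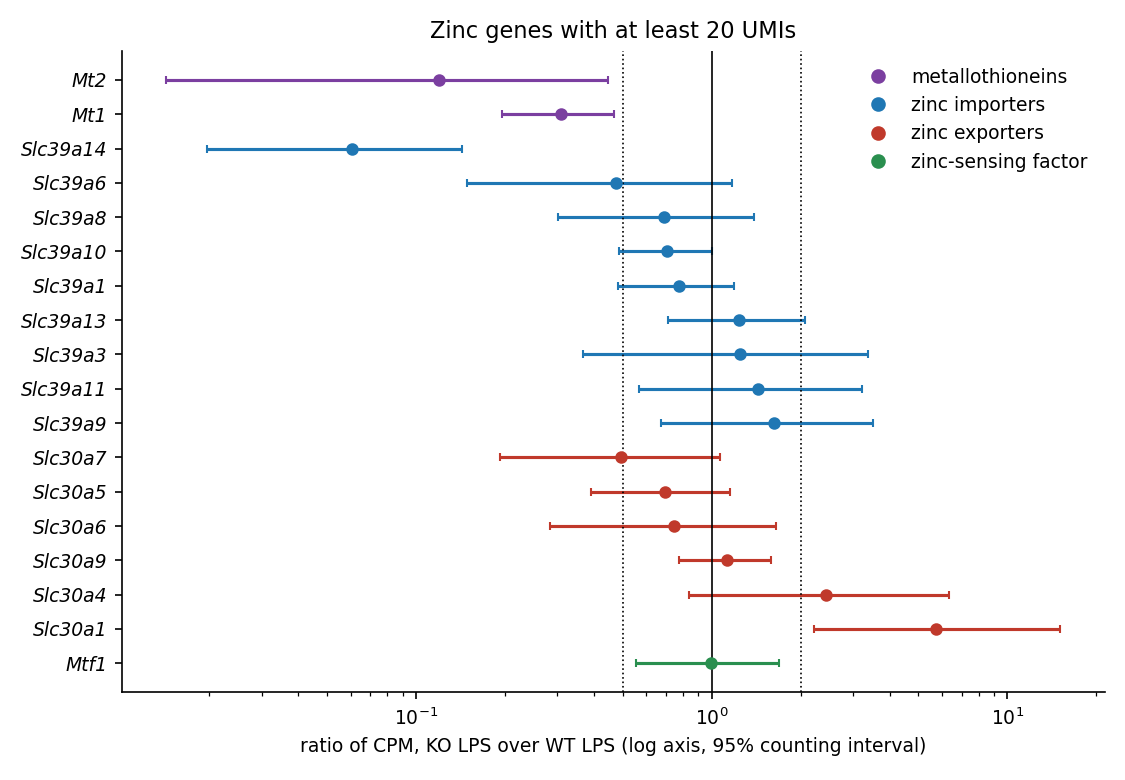
Ratio of CPM of KO over WT on a log axis for the zinc genes that reached 20 UMIs, with exact conditional binomial 95% intervals. The solid line marks a ratio of 1 and the dotted lines a 2-fold difference of the CPM, without the prior count, which Slc39a6 and Slc30a7 just pass. Mt1, Mt2 and Slc39a14 lie wholly below 1 and Slc30a1 wholly above it, and the interval of every other gene includes 1.

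Copper, which metallothioneins also bind, was followed through 10 handling genes, of which 9 had at least 20 UMIs. Those at least 2-fold lower in KO were 2 of 9, beside 15.3% of all genes, which does not set the list apart. They were Slc31a1, the copper importer, with a ratio of 0.392 (0.220 to 0.651), and Slc31a2, its endosomal relative, with a ratio of 0.199 (0.108 to 0.338). The most abundant was Atox1, the copper chaperone, at 131 and 254 CPM with a ratio of 0.516 (0.378 to 0.691). The other 6, among them the exporter Atp7a at 78.7 and 71.4 CPM and the copper enzyme Sod1 at 42.0 and 49.3 CPM, also stayed within 2-fold. The median log2 ratio of the list was -0.41.

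Glucocorticoid-responsive genes, which share an inducer with the metallothioneins, differed in both directions. Of 10 genes, 4 were at least 2-fold lower in KO and 2 at least 2-fold higher, beside 15.3% and 13.5% of all genes, and the median log2 ratio was -0.89. Per1, a clock gene, had 7 and 77 UMIs and a ratio of 0.474 (0.185 to 1.02), which is past 2-fold without the prior count. The lower ones were Fkbp5, a chaperone of the receptor complex (197 and 517 CPM, ratio 0.380, 0.297 to 0.481), Ddit4, an inhibitor of mTOR signalling (ratio 0.290, 0.191 to 0.425), and the zinc finger factors Klf9 and Zbtb16, with 1 KO UMI each against 79 and 84 in WT. Sgk1, a glucocorticoid-induced kinase, was higher in KO with a ratio of 2.08 (1.68 to 2.58), as was Errfi1, a feedback inhibitor of the EGF receptor, with 2.81 (1.57 to 4.89). Nr3c1, the receptor itself, stood at 286 and 179 CPM, a ratio of 1.60 (1.28 to 1.98).

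Interleukin-6 and STAT3 signalling, another inducer of metallothioneins, was followed through a list of its own. Of 8 genes with enough UMIs, 4 were at least 2-fold lower in KO and 0 were higher, beside 15.3% and 13.5% of all genes, with a median log2 ratio of -0.87. The 4 were the feedback inhibitor Socs3 (6 and 272 UMIs, ratio 0.115, 0.0419 to 0.254), the transcription factor Cebpb (147 and 557 CPM, ratio 0.264, 0.198 to 0.345), and Bcl3 and Pim1, with 0 KO UMIs against 57 and 94 in WT. Set to a floor of 3 counts in KO, Bcl3 was 3.64-fold lower and Pim1 6.01-fold lower. The upper limits of their ratios were 0.349 and 0.209. The receptor chains Il6ra and Il6st, which had ratios of 1.68 (1.44 to 1.94) and 1.58 (1.18 to 2.09), and the kinase Jak1, with 1.58 (1.30 to 1.90), were higher within 2-fold. Stat3 had a ratio of 1.12 (0.817 to 1.505).

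Within WT, cells with a metallothionein UMI were set beside cells without one, at 500 UMIs per cell and without the astrocyte-list cells. There were 120 cells with Mt1 or Mt2 and 1305 without. The inflammatory list stood at 10817 CPM and 10156 CPM, a ratio of 1.07 (0.981 to 1.15), and its most abundant gene Saa3 at 3717 and 3914 CPM, a ratio of 0.9495 (0.824 to 1.09). Neither differed beyond counting error between the 2 sets of cells. The interferon list was 1.31-fold (1.06 to 1.60), the glucocorticoid list 1.27-fold (1.03 to 1.56) and the homeostatic list 1.09-fold (1.02 to 1.16) higher in cells with metallothionein UMIs. The microglia list was higher there as well, 1.10-fold (1.04 to 1.17). These cells are of a single library and no test was made, and the small ratios are given as a description. For Slc39a14 the ratio was 0.930 (0.484 to 1.64), from 13 UMIs in the cells with metallothionein UMIs, too few to tell it from 1 or from the ratios above.

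The transcripts most like Mt1 and Mt2 across the 1427 WT cells were followed by Pearson's r on the log scale after thinning, among 1922 genes present in at least 5% of cells. The 5 highest were Sdc4, a cell surface proteoglycan (r = 0.17), Lgals3bp, a secreted glycoprotein (0.11), Msr1, a scavenger receptor (0.11), Ndufa13, a subunit of respiratory complex I (0.10), and Psmc4, a proteasome subunit (0.10). The median r of all genes was -0.005. Without the 2 astrocyte-list cells, Ndufa13 and Psmc4 left these 5 and Srgn, a granule proteoglycan, and Cst3, a protease inhibitor, took their places (r = 0.11 each). All points are cells of 1 library with sparse counts, and correlations of this size are not read as a finding. The level of Msr1 in cells with metallothionein UMIs over that in cells without, a ratio of 1.53 (1.28 to 1.82), comes from the same cells and is no separate result. Sdc4 had 11 UMIs in KO and 514 in WT, a ratio of 0.112 (0.0554 to 0.201), and Msr1 had 2 and 3153.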

How the data were processed

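Drop-seq counts of CD11b+CD45int cells were analysed from 1 library per genotype. The authors deposited raw counts (UMIs for each gene in each droplet) in 1 matrix per library with neither normalisation nor a cell filter, and missing values were read as 0. The submitters' processing notes name bcl2fastq 2.0, STAR and the builds mm9 and mm10 without roles. Counting program, annotation and use of strand are not given in the sources used here, so that counts of overlapping genes and of the paralogs Mt1 and Mt2 are uncertain. The study called cells with DropletUtils. Here a fixed minimum of 500 UMIs and 100 genes was applied to the deposited count matrices, which held 684738 UMIs (KO) and 3063795 UMIs (WT), of which 55.7% and 64.9% lay in cells.

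UMIs were summed per library in Python 3.11.15 (numpy 2.4.6, scipy 1.17.1). Exact 95% intervals were Poisson for levels, conditional binomial for ratios and Clopper-Pearson for shares. They cover counting error only. The cell-level test of the study was not run, as cells are not replicates. The expected count of cells with both metallothioneins is the product of the separate shares and the number of cells. Genes named by rule were the 5 genes, Park7, list genes that differed at least 2-fold, the most abundant gene of each list and the 5 genes most correlated with Mt1 and Mt2. Other genes were named beside them after their values were seen. The calculations were tested on simulated data. The genes and lists were chosen with earlier results of these data known.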

Additional observations from a re-analysis of the deposited data

How the results depend on the processing

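Of 98 alternative values, 81 stayed within the counting interval of the reported value (for counts of genes, within 1.5-fold), 17 moved outside it and 0 reversed a called direction. With the 3 cells highest for Mt1 and Mt2 left out in each library, the log2 ratio of KO over WT was -2.69 for Mt1 and -2.83 for the sum of Mt1 and Mt2, beside -1.67 and -1.83. Without cells holding at least 2 UMIs of other cell types it was -2.45 and -2.73, in Xist cells -2.69 and -2.96, without the astrocyte-list cells (chosen after seeing the data) -2.36 and -2.53, and with free RNA subtracted -4.27 and -3.74, where the KO level left was not detectably above 0. For Mtf1, subtracting free RNA gave 1.39, from levels close to 0 in both libraries. For Slc39a14, the Y-linked cells gave a bound of -0.0033 from 0 KO UMIs against the floor of 3 counts, which carries no information. The share difference of cells with a metallothionein UMI, -6.36 percentage points, moved to -14.5 without thinning, to -10.2 at 1000 UMIs and to -8.53 in Xist cells. Genes at least 2-fold higher in KO numbered 1225, and 3889 with a minimum of 1 UMI or 716 with a minimum of 50. No value could be given for Mt1, Mt2, their sum, Slc30a1, Mtf1 and the co-detection in Y-linked cells, or for Slc39a14 and Slc30a1 after subtracting free RNA, where the cells of WT did not exceed it. With 1 library per genotype, spread between mice is unknown, and the 2 KO UMIs of Mt2 and the 21 UMIs of Slc30a1 limit both ratios.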
